A study of Mus musculus with 12 samples.

Results

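The glucocorticoid receptor gene Nr3c1 and 8 genes known as targets of the receptor in many tissues (Sgk1, Zbtb16, Pik3ip1, Tsc22d3, Fkbp5, Per1, Dusp1 and Ddit4) were followed on 12 arrays of the mouse pro-erythroblast line I/11. The genes came from a list of names drawn up with earlier results of these data known, and every probe set annotated to 1 of them alone was taken, which gave 22 probe sets for 9 of the 18194 genes on the array. Of these 22 probe sets, 18 passed the filter on low signal, and each of the 9 genes kept at least 1, so that all 9 were among the 12673 genes tested. Where a gene had several probe sets, the brightest over the 12 arrays stood for it, and the others are given separately.

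I/11 cells are immature red cell precursors grown out from fetal liver of mice without p53, and all 12 samples share that background. Cells carried a scrambled shRNA (scr) or an shRNA against Plcg1, here sh14 or sh133, from stable infection with a puromycin-selectable lentiviral vector. Each of the 3 lines was sampled at 1, 6, 12 and 22 h, with 1 array per line and time. Plcg1 encodes phospholipase C gamma 1, an enzyme of growth factor signalling, and the series asks what it does in red cell differentiation driven by the erythropoietin receptor. The growth medium given for all samples held erythropoietin, stem cell factor and 1 µM dexamethasone, a synthetic glucocorticoid. The labels state neither the event from which the hours were counted nor whether dexamethasone was present during them. They also do not say whether arrays came from separate cultures, so p-values measure only the spread that remains after line, time and array run are taken out.

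The glucocorticoid receptor waits in the cytoplasm in a complex with heat shock proteins, enters the nucleus when hormone binds, and activates genes at a palindromic DNA element or through other bound factors. In red cell precursors, glucocorticoids act together with stem cell factor and erythropoietin to favour self-renewal over maturation, above all under stress. Among the targets, Fkbp5 encodes a co-chaperone that lowers the receptor's hormone binding. Zbtb16, Tsc22d3 (also called GILZ) and Per1 encode regulators of transcription, Sgk1 a kinase related to Akt, Pik3ip1 and Ddit4 (also called REDD1) inhibitors of PI3-kinase and of mTORC1, and Dusp1 a phosphatase that switches off MAP kinases.

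Promoter sequence from RefSeq (build GRCm38.p6, from 250 bases before to 50 bases after a start) was matched for 7 of the 9 genes, with 15 entries in all, and not for Nr3c1 and Zbtb16. Both strands were searched for the palindromic glucocorticoid element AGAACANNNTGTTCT, its arm AGAACA, the cAMP element TGACGTCA, its core TGACG and the E-box CACGTG. The arm is contained in the full element and the core in the cAMP element, so these matches overlap. The 4 promoters below are shown because their genes give the largest fall (Sgk1), the return of signal at 22 h (Tsc22d3), an early fall that then held (Per1) and the only rise (Dusp1), with all matches in capitals.
Sgk1 chr10:21993640-21993939 (+): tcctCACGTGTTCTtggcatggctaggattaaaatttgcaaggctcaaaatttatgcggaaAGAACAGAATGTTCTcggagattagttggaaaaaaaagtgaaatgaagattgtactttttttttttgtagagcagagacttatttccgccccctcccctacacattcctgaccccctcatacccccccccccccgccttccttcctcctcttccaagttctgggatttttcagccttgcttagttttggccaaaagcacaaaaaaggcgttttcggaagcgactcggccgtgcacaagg
Tsc22d3 chrX:140600473-140600772 (-): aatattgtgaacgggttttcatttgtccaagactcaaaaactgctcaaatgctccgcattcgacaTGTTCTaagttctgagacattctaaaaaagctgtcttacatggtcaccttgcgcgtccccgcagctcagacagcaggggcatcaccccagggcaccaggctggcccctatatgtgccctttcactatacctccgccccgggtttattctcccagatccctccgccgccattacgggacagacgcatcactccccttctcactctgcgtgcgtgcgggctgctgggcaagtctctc
Per1 chr11:69099902-69100201 (+): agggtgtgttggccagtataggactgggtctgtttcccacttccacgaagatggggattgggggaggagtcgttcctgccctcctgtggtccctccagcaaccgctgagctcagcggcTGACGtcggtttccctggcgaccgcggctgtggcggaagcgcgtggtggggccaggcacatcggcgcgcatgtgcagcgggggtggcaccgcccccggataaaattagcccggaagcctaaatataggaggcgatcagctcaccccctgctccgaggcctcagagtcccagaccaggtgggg
Dusp1 chr17:26508423-26508722 (-): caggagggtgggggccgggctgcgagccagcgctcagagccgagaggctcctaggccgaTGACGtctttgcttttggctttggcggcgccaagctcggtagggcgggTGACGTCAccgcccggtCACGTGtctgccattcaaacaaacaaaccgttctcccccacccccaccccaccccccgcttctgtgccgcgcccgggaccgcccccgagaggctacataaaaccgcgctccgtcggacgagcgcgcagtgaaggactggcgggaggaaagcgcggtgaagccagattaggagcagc
The Sgk1 promoter shown, 1 of 6 entries, was the only entry of the 15 with the full element, as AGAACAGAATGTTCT beginning 189 bases before the start. It also held 1 further arm at 242 bases that overlaps an E-box at 246. The other 5 entries of Sgk1, at other starts, held an arm at 195 bases in 1, an arm at 13 in another and a core at 236 in a further one. The rest of them held none of these letters. Only 3 of 32851 promoter entries (0.00913%) held the full element. The Tsc22d3 promoter shown, 1 of 3 entries, held 1 arm at 185 bases, and another entry held a core at 224. At least 1 arm is present in 19.0% of all entries. Dusp1 held a cAMP element at 143 bases, found in 1.79% of entries, a further core at 191 and an E-box at 126. The Per1 promoter shown, 1 of 2 entries, held 1 core at 132 bases, and the other entry held a core at 246 and an E-box at 166. The core is present in 20.8% of entries. The promoter entries of Pik3ip1 and Ddit4 held none of these letters, and that of Fkbp5 held 1 E-box (in 7.15% of entries). A match describes the letters only. A window without a match says nothing of binding elsewhere, and no binding was measured here.

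The array run is a factor in every comparison. The array titles carry 2 date strings on 6 arrays each, here called runs, and what the dates record is not given. Run 1 held all sh14 arrays with sh133 at 6 and 12 h, and run 2 all scr arrays with sh133 at 1 and 22 h. Within every line the 1 h and 22 h arrays share a run. Run 1 thus held 1 h and 22 h arrays of sh14 alone, and run 2 held 6 h and 12 h arrays of scr alone. Within run 1 every difference from 1 h, and within run 2 those at 6 h and 12 h, therefore rest on a single array at 1 of the times or both. Differences between runs and between lines cannot be told apart in such fits. The targeted gene itself did not separate the lines at every time. Plcg1 signal was 4.74, 4.45, 4.61 and 4.31 in scr at 1, 6, 12 and 22 h, against 4.16, 3.86, 4.27 and 4.30 in sh14 and 4.53, 4.35, 4.37 and 4.39 in sh133. It lay below scr at 1, 6 and 12 h in both hairpin lines, level with scr at 22 h in sh14 and above it in sh133, so the lines are compared here as labelled. Of 12 erythroid markers 10 were on the array, and 9 of these passed the filter, Hba-a1 being the exception. Their summed linear signal was 1882 to 4763 across arrays, while lists for macrophages, neutrophils, T cells and B cells summed to between 13.4 and 24.6. In a bulk sample, fewer cells of a kind and less RNA per cell cannot be told apart.

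Most of the target genes were at their highest 1 h into the series and lower at every later time, in all 3 lines. Across lines, 6 of the 9 genes fell from 1 h to 6 h (limma, Benjamini-Hochberg adjusted p below 0.05 over all 12673 genes), where 1.93% of all tested genes fell and 2.93% rose, and none of the 9 rose. From 1 h to 12 h 7 of the 9 fell, against 2.75% of all genes, and none rose, against 4.32%. From 1 h to 22 h 6 fell, against 9.34%, and 1 rose, against 8.74%. The median difference of the 9 genes was -1.05 at 6 h, -1.16 at 12 h and -0.93 at 22 h on the log2 scale, against medians of 0.03, 0.03 and 0.02 over all tested genes. The receptor gene passed at no time, Tsc22d3 not at 22 h and Pik3ip1 not at 6 h, while Dusp1 passed at 22 h alone and in the other direction.

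**Figure D1:**
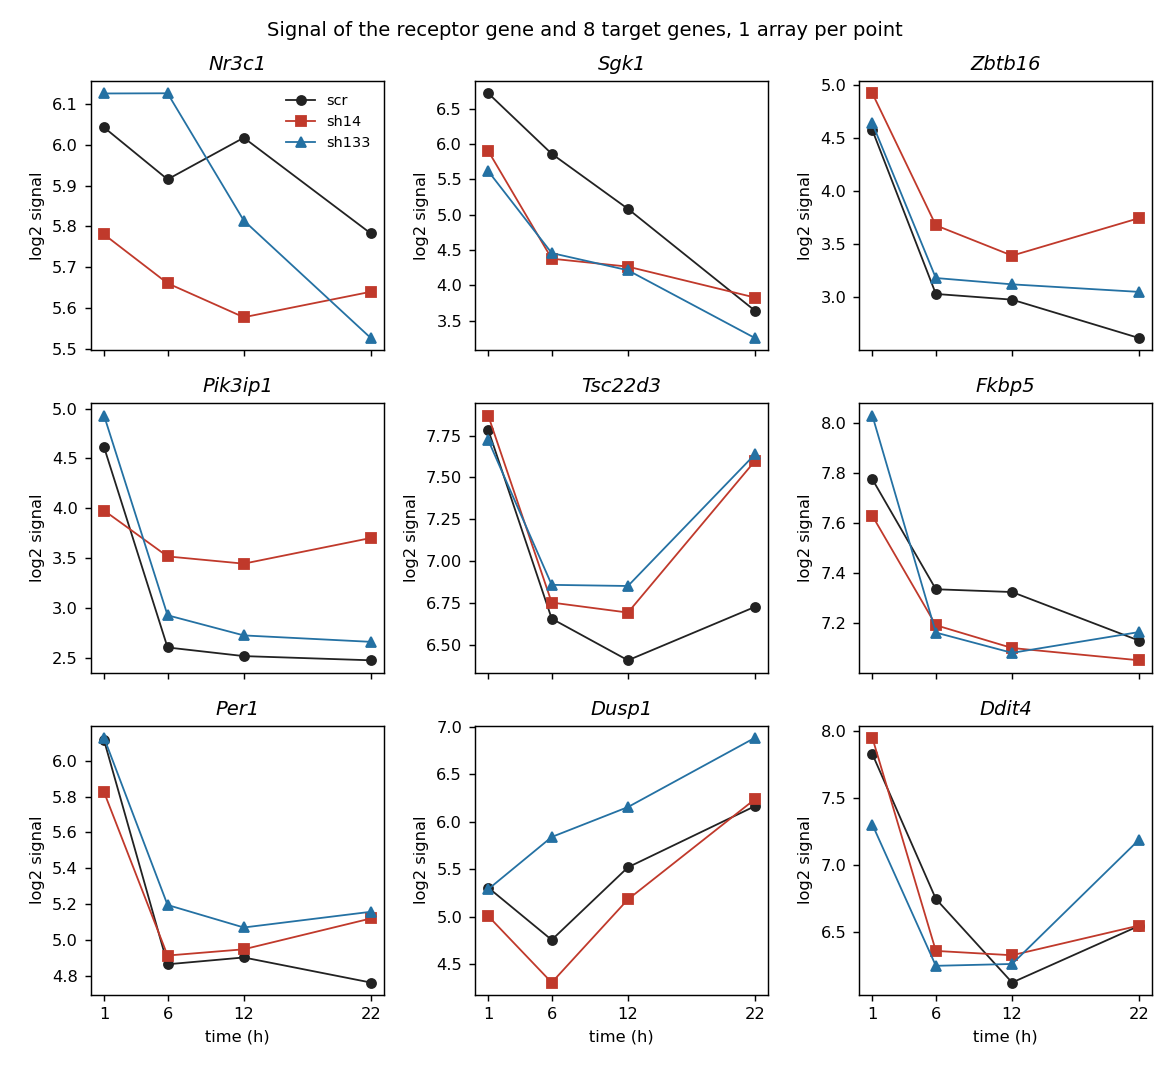
Log2 signal (vertical axis, a separate scale in each panel) of the brightest probe set of each gene against time in hours, with 1 array per point and 1 line of points for each of scr (black circles), sh14 (red squares) and sh133 (blue triangles). In 7 of the panels each line is at its highest at 1 h, while Nr3c1 spans only 5.53 to 6.13 and Dusp1 is at its highest at 22 h in every line.

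Nr3c1, the receptor gene, varied little. In scr its signal was 6.04, 5.92, 6.02 and 5.78 at 1, 6, 12 and 22 h. Nr3c1 in sh14 was at 5.78, 5.66, 5.58 and 5.64. Nr3c1 in sh133 was at 6.13, 6.13, 5.81 and 5.53. The sh14 arrays all lay below the scr array of the same time, whereas sh133 began above scr and ended below it. The 22 h minus 1 h difference was -0.33 ± 0.12 (SE, 12 arrays; limma adjusted p = 0.0757) and did not pass, nor did those at 6 h (-0.14, adjusted p = 0.655) and 12 h (-0.23, adjusted p = 0.35). Without the sh14 array at 22 h the 22 h difference was -0.43 (limma adjusted p = 0.0454). Of the 6 Nr3c1 probe sets 4 passed the filter. In a fit over all 22549 probe sets past the filter the second brightest fell by 0.37 from 1 h to 22 h (limma adjusted p = 0.0395), and the dimmer 2 differed by -0.04 and -0.10 (limma adjusted p = 0.875 and 0.738).

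Fkbp5, the receptor's co-chaperone, fell by a small amount, most in sh133 in its brightest probe set. Its signal in scr was 7.77, 7.33, 7.32 and 7.13 at 1, 6, 12 and 22 h. Fkbp5 in sh14 was at 7.63, 7.19, 7.10 and 7.05. Fkbp5 in sh133 was at 8.03, 7.16, 7.08 and 7.16. The 3 arrays at 1 h lay above all 9 later arrays. The difference from 1 h was -0.48 ± 0.10 at 6 h (SE; limma adjusted p = 0.0284), -0.54 ± 0.10 at 12 h (limma adjusted p = 0.0122) and -0.70 ± 0.09 at 22 h (limma adjusted p = 0.000615), the last a 1.62-fold fall. At 6 h the call depended on the arrays used: 9 of the 12 fits that left out 1 array lost it, the exceptions being sh14 at 1 h, sh14 at 22 h and scr at 22 h, with differences between -0.52 and -0.43 and adjusted p between 0.0267 and 0.156. At 12 h it was lost without the sh14 array at 12 h (-0.51, limma adjusted p = 0.0903) or the scr array at 12 h (-0.58, limma adjusted p = 0.0691). Averaged over all 3 of its probe sets, of which 2 passed the filter, Fkbp5 gave -0.28 at 6 h and at 12 h (limma adjusted p = 0.112 and 0.0832). The second brightest probe set gave -0.41, -0.38 and -0.72 at 6, 12 and 22 h (limma adjusted p = 0.0583, 0.0641 and 0.000752 over all probe sets). Its change from 1 h to 22 h was -0.85 in scr, -0.65 in sh14 and -0.64 in sh133. Within single runs the 6 h and 12 h calls were lost in both (-0.44 and -0.53 in run 1, -0.50 and -0.51 in run 2), and the 22 h call in run 1 (-0.58, limma adjusted p = 0.0528).

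The 3 transcriptional regulators among the targets, Zbtb16, Tsc22d3 and Per1, had fallen by 6 h and parted afterwards. Zbtb16 encodes the zinc finger factor PLZF. In scr it was at 4.57, 3.03, 2.98 and 2.62 at the 4 times. Zbtb16 in sh14 was at 4.92, 3.68, 3.39 and 3.75. Zbtb16 in sh133 was at 4.64, 3.18, 3.12 and 3.05. The 1 h arrays stood clear of all later ones, and at every time both hairpin lines lay above scr. Its fall was -1.41 ± 0.15 at 6 h, -1.55 ± 0.15 at 12 h and -1.57 ± 0.14 at 22 h (SE; limma adjusted p = 0.00205, 0.00081 and 7.28e-05), the last a 2.97-fold fall. All of the 21 alternative settings kept these 3 calls. The second brightest probe set fell as well, with differences of -1.68, -1.64 and -1.83 (limma adjusted p = 0.000835, 0.000711 and 3.06e-05 over all probe sets), and the third, with a mean signal of 2.10, did not pass at any time.

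Tsc22d3, which encodes the leucine zipper protein GILZ, fell by 6 h and lay near its 1 h signal again at 22 h in the hairpin lines. In scr it was at 7.79, 6.66, 6.41 and 6.73 at 1, 6, 12 and 22 h. Tsc22d3 in sh14 was at 7.87, 6.75, 6.69 and 7.60. Tsc22d3 in sh133 was at 7.72, 6.86, 6.85 and 7.64. At 6 and 12 h all 6 arrays lay below all 1 h arrays, and at 22 h both hairpin arrays were back near the 1 h level while the scr array was not. The difference from 1 h was -1.05 ± 0.19 at 6 h (SE; limma adjusted p = 0.0139) and -1.16 ± 0.19 at 12 h (limma adjusted p = 0.00597), but -0.47 ± 0.17 at 22 h (limma adjusted p = 0.0775), which did not pass. The 6 h call was lost without sh14 at 6 h (-0.97, limma adjusted p = 0.0886), scr at 6 h (-1.18, limma adjusted p = 0.0614) or scr at 1 h (-0.85, limma adjusted p = 0.064), and the 12 h call without sh14 at 12 h (-1.11, limma adjusted p = 0.0506). Within run 2 alone neither passed (-0.89 at 6 h and -1.13 at 12 h, limma adjusted p = 0.284 and 0.113). The 22 h value ran from -0.67, without either sh133 array at 1 or 22 h, to -0.21, without scr at 22 h, and was -0.31 without scr at 1 h. The second brightest probe set fell, with differences of -1.32, -1.39 and -0.69 at 6, 12 and 22 h (limma adjusted p = 0.00871, 0.00445 and 0.0288 over all probe sets). The third differed by -0.29, -0.35 and -0.06 and passed at no time (limma adjusted p = 0.293, 0.167 and 0.806).

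Per1, a repressor in the circadian clock, dropped to a new level by 6 h and stayed there. Per1 in scr was at 6.11, 4.86, 4.90 and 4.76 at the 4 times. Per1 in sh14 was at 5.82, 4.91, 4.95 and 5.12. Per1 in sh133 was at 6.13, 5.20, 5.07 and 5.16. All later arrays lay between 4.76 and 5.20, below the lowest 1 h array. The differences were -1.04 ± 0.13, -1.06 ± 0.13 and -1.01 ± 0.12 at 6, 12 and 22 h (SE; limma adjusted p = 0.00324, 0.00198 and 0.000341), or 2.01-fold at 22 h. No single array ended any of these calls. At 6 h the difference was -0.87 within run 1 (limma adjusted p = 0.0584) and -1.15 within run 2 (limma adjusted p = 0.0629).

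**Figure D2:**
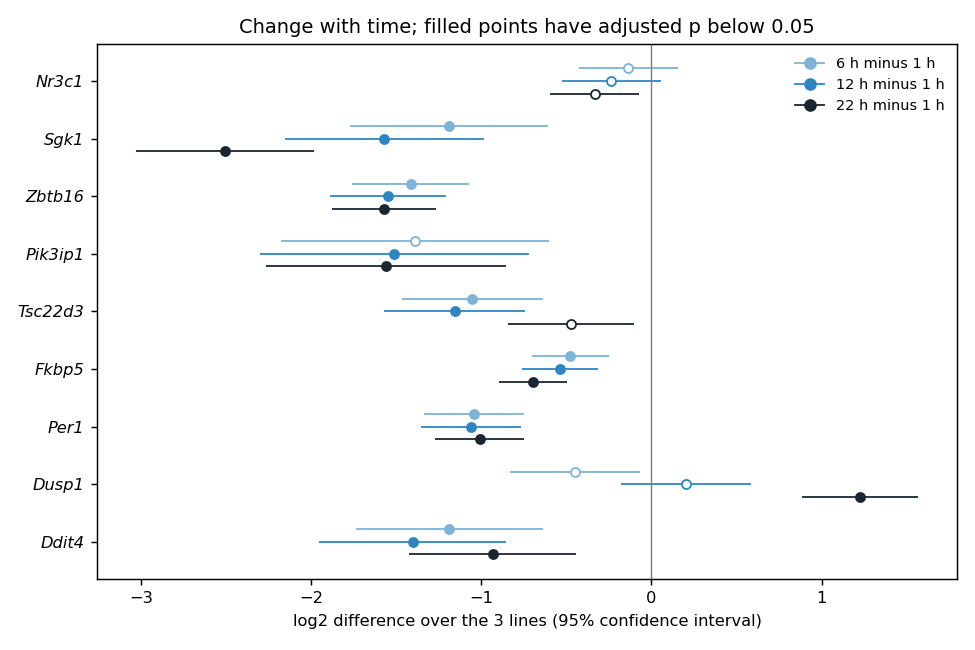
Log2 difference from 1 h (horizontal axis) at 6, 12 and 22 h for each gene, estimated over the 3 lines with line and array run in the model, with bars for the 95% confidence interval and filled points for adjusted p below 0.05. Sgk1 moves further from 0 at each time, to -2.51, Zbtb16 and Per1 stay in place after 6 h, Tsc22d3 comes back to -0.47, and Dusp1 crosses 0 to reach 1.23.

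The genes of the PI3-kinase and mTOR branch, Sgk1, Pik3ip1 and Ddit4, gave the largest fall of the 9 genes, that of Sgk1 at 22 h. Sgk1 fell further with each sample. Its signal in scr was 6.72, 5.86, 5.08 and 3.64 at 1, 6, 12 and 22 h. Sgk1 in sh14 was at 5.90, 4.38, 4.27 and 3.83. Sgk1 in sh133 was at 5.62, 4.46, 4.21 and 3.25. Each line declined at every step, and scr, highest at 1, 6 and 12 h, lay between the hairpin lines at 22 h. The difference from 1 h was -1.19 ± 0.26 at 6 h (SE; limma adjusted p = 0.0329), -1.57 ± 0.26 at 12 h (limma adjusted p = 0.00709) and -2.51 ± 0.23 at 22 h (limma adjusted p = 0.000104), the last a 5.68-fold fall that kept its call in all 21 alternatives. Only 0.0868% of tested genes had a more negative 22 h difference. The 6 h call was lost in 9 of the 12 fits without 1 array, the exceptions being sh14 at 22 h, scr at 6 h and scr at 22 h, with values from -1.56 to -0.88 and adjusted p from 0.00489 to 0.178. The 6 h difference was -1.49 within run 1, where only sh14 has a 1 h array, and -0.68 within run 2, where only scr has a 6 h array. At 12 h the call was lost without sh14 at 12 h (-1.50, limma adjusted p = 0.0569) or scr at 12 h (-1.58, limma adjusted p = 0.0559).

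Pik3ip1, an inhibitor of PI3-kinase, fell in scr and sh133 and by less in sh14, in its brighter probe set. In scr it was at 4.61, 2.61, 2.52 and 2.48 at the 4 times. Pik3ip1 in sh133 was at 4.93, 2.93, 2.73 and 2.66. Pik3ip1 in sh14 was at 3.98, 3.52, 3.45 and 3.70. In this probe set the sh14 line was the lowest of the 3 at 1 h and the highest at every later time. Over the 3 lines the difference from 1 h was -1.39 ± 0.35 at 6 h (SE; limma adjusted p = 0.0542, not past the threshold), -1.51 ± 0.35 at 12 h (limma adjusted p = 0.0317) and -1.56 ± 0.32 at 22 h (limma adjusted p = 0.00764). Within run 2 (scr and sh133) the 22 h difference was -2.20 (limma adjusted p = 0.000128), and within run 1, where sh14 alone gives it, -0.27 (limma adjusted p = 0.264). Without sh14 at 1 h the 6 h difference was -2.11 and passed (limma adjusted p = 0.000213), as it did without sh14 at 22 h (-1.30, limma adjusted p = 0.0364). The 12 h call was lost in 9 of the 12 fits without 1 array, the exceptions being sh14 at 1 h, sh14 at 22 h and scr at 22 h, with values between -2.24 and -1.11 and adjusted p up to 0.18. The 22 h call was lost without sh133 at 1 h or at 22 h (-1.21 and limma adjusted p = 0.0732 in both fits). The dimmer of its 2 probe sets, at a mean of 1.82, differed by -0.93, -0.82 and -0.80 and did not pass. At 1 h this dimmer set lay at 2.17 in sh14, between scr (1.89) and sh133 (3.50). From 1 h to 6 h it changed by -0.68 in sh14, -0.56 in scr and -1.97 in sh133. For the mean of 6, 12 and 22 h minus 1 h the changes were -0.27, -0.60 and -1.96 in the same order.

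Ddit4, an inhibitor of mTORC1 that is induced by several stresses, fell by 6 h and was at its lowest at 6 or 12 h in each line. In scr it was at 7.83, 6.75, 6.12 and 6.55 at 1, 6, 12 and 22 h. Ddit4 in sh14 was at 7.95, 6.36, 6.33 and 6.55. Ddit4 in sh133 was at 7.30, 6.25, 6.26 and 7.19. The 22 h array of sh133 was almost back at its 1 h level, while scr and sh14 stayed low. The differences were -1.19 ± 0.25 at 6 h, -1.40 ± 0.25 at 12 h and -0.93 ± 0.22 at 22 h (SE; limma adjusted p = 0.0254, 0.00885 and 0.0163). Within run 2 alone the differences were -0.79, -1.41 and -0.70, with 6 h and 12 h arrays from scr alone. The 22 h difference did not pass there (limma adjusted p = 0.118). Run 1 alone gave -1.60, -1.61 and -1.40, with 1 h and 22 h arrays from sh14 alone, so this contrast of runs is also a contrast of lines. The 22 h call was lost without the sh14 array at 1 h or 22 h (-0.73 and -0.79, limma adjusted p = 0.0642 and 0.059) or the scr array at 1 h or 22 h (-0.83 and -0.78, limma adjusted p = 0.0594 and 0.0702). The 12 h call was lost without sh14 or scr at 12 h (-1.45 and -1.25, limma adjusted p = 0.053 and 0.0843). At 6 h 6 of the 12 fits without 1 array lost it, those without scr or sh14 at 1 or 6 h or sh133 at 6 or 12 h, with values over all 12 from -1.41 to -0.94 and adjusted p up to 0.141.

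Dusp1, a MAP kinase phosphatase, was the only one of the 9 that rose. Dusp1 in scr was at 5.31, 4.76, 5.52 and 6.17 at the 4 times. Dusp1 in sh14 was at 5.01, 4.31, 5.18 and 6.24. Dusp1 in sh133 was at 5.29, 5.84, 6.16 and 6.89. In scr and sh14 a dip at 6 h preceded the rise, and sh133 showed no dip. From 1 h to 22 h Dusp1 rose by 1.23 ± 0.15 (SE; limma adjusted p = 0.000498), which is 2.34-fold, in 3 of 3 lines and in all 21 alternatives. The differences at 6 h (-0.45 ± 0.17, limma adjusted p = 0.184) and 12 h (0.20 ± 0.17, limma adjusted p = 0.57) did not pass.

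Over all 18 probe sets of the 9 genes past the filter, 8 fell at 6 h, 9 at 12 h and 10 at 22 h, with 1 rise at 22 h, in the limma fit over 22549 probe sets, of which 1.92%, 2.61% and 8.83% fell at those times and 7.15% rose at 22 h. In the same fit 1 of the 18, that of Dusp1, was lower in sh14 than in sh133, as were 5.8% of all probe sets. No probe set passed in the direction opposite to the brightest of its gene.

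**Figure D3:**
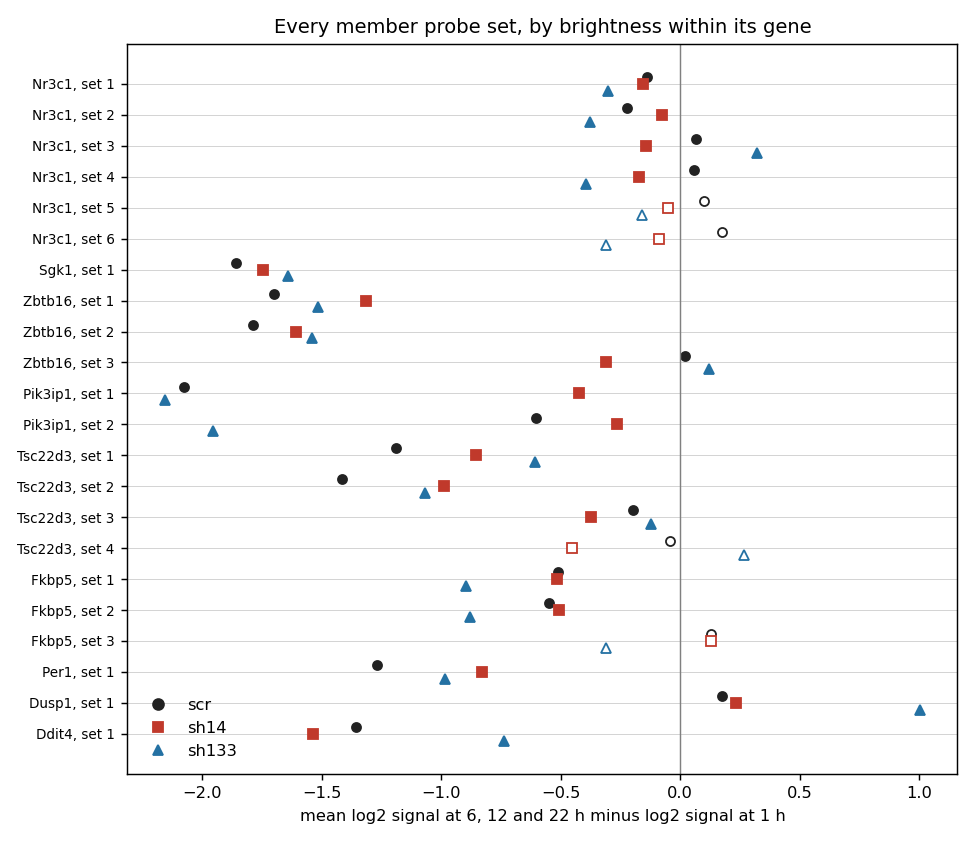
Mean log2 signal at 6, 12 and 22 h minus that at 1 h (horizontal axis) for each of the 22 probe sets, numbered by brightness within the gene, in scr (circles), sh14 (squares) and sh133 (triangles), open where the probe set did not pass the filter. Zbtb16 sets 1 and 2 and Tsc22d3 sets 1 and 2 lie near each other, and Pik3ip1 set 1 lies at -0.42 in sh14 against -2.08 in scr and -2.16 in sh133.

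Between lines, the same 9 genes gave few differences. With the hairpin lines averaged, 0 of 9 differed from scr (limma, where 2.18% of all genes did, 1.14% higher and 1.04% lower). An unadjusted p below 0.05 was found for 1 of 9, and for 1857 of all 12673 genes. For sh14 against scr 0 of 9 passed (3.06% of all genes, 1.5% higher and 1.56% lower). There 2 of 9, and 2162 of all genes, had an unadjusted p below 0.05. For sh133 against scr 0 of 9 passed (4.91%, 2.45% higher and 2.45% lower), with 1 of 9, and 2231 of all genes, at an unadjusted p below 0.05. Between the hairpin lines 1 of 9 differed, lower in sh14 (14.6% of all genes, 7.54% higher and 7.11% lower). Without the array run in the model 2 of 9 passed in each of these 4 comparisons, where 16.2%, 23.7%, 12.6% and 24.7% of all genes did. These comparisons share the scr or hairpin arrays, and sh14 shares no run with scr.

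Sgk1 had the most negative difference from scr when the hairpin lines were averaged. It was lower in sh14 by 0.82, 1.49 and 0.82 at 1, 6 and 12 h and 0.19 higher at 22 h. In sh133 it was lower by 1.10, 1.41, 0.87 and 0.39. At 22 h the lines were thus closest together. The difference of both hairpin lines from scr was -0.86 ± 0.32 (SE; limma adjusted p = 0.239), and that of sh133 -0.95 ± 0.27 (limma adjusted p = 0.0773), or -0.74 within run 2 alone (limma adjusted p = 0.0984). Without the array run in the model the value for both lines was -0.84 with an adjusted p of 0.00539 in limma. Without the scr array at 22 h it was -1.33 for both lines (limma adjusted p = 0.0296) and -1.36 for sh133 (limma adjusted p = 0.00836), and without the sh14 array at 22 h it was -0.84 for sh133 (limma adjusted p = 0.046).

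Zbtb16 was above scr at every time in both lines, by 0.35, 0.65, 0.41 and 1.13 in sh14 and by 0.06, 0.15, 0.14 and 0.43 in sh133. Its difference over both lines was 0.41 ± 0.19 (SE; limma adjusted p = 0.343) with the run in the model and 0.42 (limma adjusted p = 0.014) without it. The call for Zbtb16 thus turned on the run term and not on the size of the difference.

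Dusp1 separated the hairpin lines from each other. It was lower in sh14 than in sh133 by 0.28, 1.53, 0.97 and 0.65 at 1, 6, 12 and 22 h, of which 6 and 12 h are pairs within run 1. The fitted difference was -1.18 ± 0.18 (SE; limma adjusted p = 0.002), lower in 4 of 4 pairs, and -1.25 within run 1 alone (limma adjusted p = 0.00734). It was -0.93 without the sh133 array at 6 h, where the adjusted p of limma was 0.0623. Neither line differed from scr past the threshold: sh14 gave -0.90 ± 0.27 (SE; limma adjusted p = 0.109) and sh133 0.28 ± 0.18 (SE; limma adjusted p = 0.465). Both values depended on the run term. Without it sh133 gave 0.60 and passed (limma adjusted p = 0.0366), and sh14 gave -0.25 (limma adjusted p = 0.315). The sh14 array differed from the scr array of the same time by -0.30, -0.45, -0.34 and 0.07 at 1, 6, 12 and 22 h, all nearer 0 than the value with the run term. Without the scr array at 22 h the sh14 difference was -1.18 (limma adjusted p = 0.0393). Within run 1 alone Pik3ip1 also differed between the hairpin lines (0.65, limma adjusted p = 0.0116; 18.7% of all genes passed there), as it did without the sh14 array at 1 h (0.72, limma adjusted p = 0.00378).

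**Figure D4:**
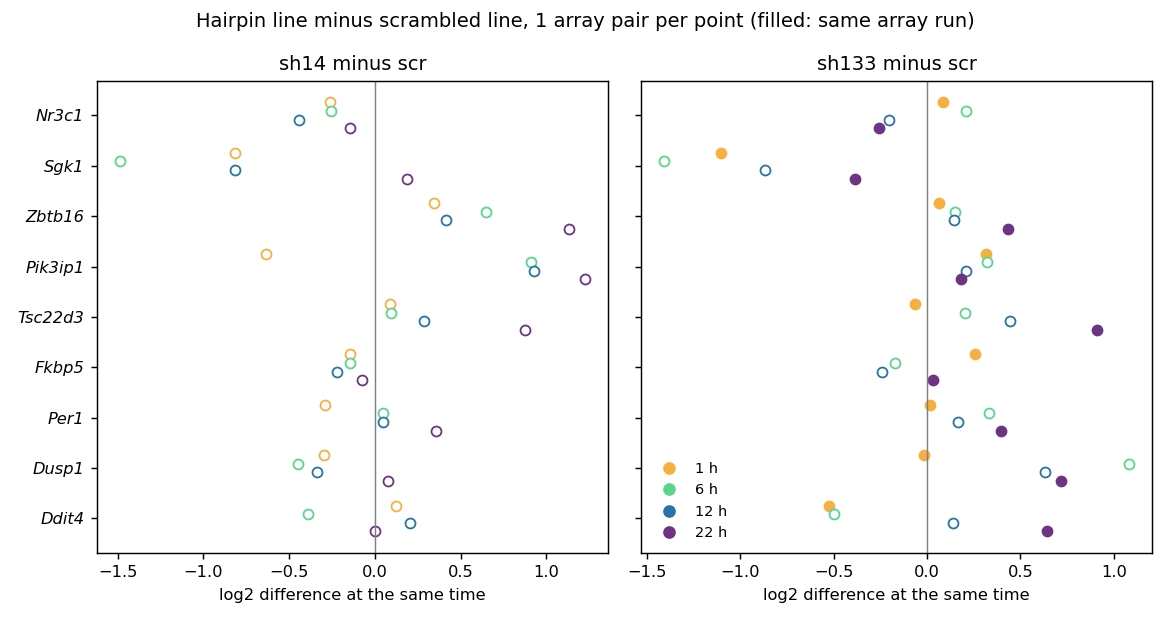
Log2 signal of a hairpin line minus scr at the same time (horizontal axis), 1 pair of arrays per point, for sh14 (left) and sh133 (right), coloured by time and filled where both arrays belong to the same run. Sgk1 points lie left of 0 except for sh14 at 22 h, Zbtb16 points all lie right of 0, and the Tsc22d3 points at 22 h are at 0.87 in sh14 and 0.91 in sh133.

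Whether the time course itself differed between lines was tested as the difference of slopes on log2 hours between hairpin lines and scr. None of the 9 genes passed (limma; 0.00789% of all genes did). An unadjusted p below 0.05 was found for 0 of the 9, and for 1514 of all genes. Further comparisons were added after the values had been seen. For the mean of 6, 12 and 22 h minus 1 h, sh14 and scr differed in 1 of 9 genes (0.0631% of all genes, 0.0552% higher), Pik3ip1. Its change was -2.08 in scr, -0.42 in sh14 and -2.16 in sh133, and the difference between sh14 and scr was 1.66 ± 0.19 (SE; limma adjusted p = 0.0492). That call was close to the threshold. It was lost in 8 of 10 fits without 1 array, namely without any of the 6, 12 or 22 h arrays of sh14 or scr or the 6 or 12 h arrays of sh133, where the value ran from 1.55 to 1.72 and adjusted p up to 0.26, and in the mean over both probe sets it was 1.00 (limma adjusted p = 0.168). Against sh133 the difference was 1.89 ± 0.23 (SE; limma adjusted p = 0.0948), and 0 of 9 genes passed (0.00789% of all genes). There 2 of the 9, and 1133 of all genes, had an unadjusted p below 0.05. For the dimmer Pik3ip1 probe set alone sh14 gave 0.34 against scr and 2.04 against sh133 (limma adjusted p = 0.672 and 0.458 over all probe sets). For sh133 against scr 0 of 9 passed (0.0158%), and 1 of 9, with 1013 of all genes, had an unadjusted p below 0.05. The largest difference was that of Ddit4 at 1.14 ± 0.31 (SE; limma adjusted p = 0.471), or 0.62 without the run term (limma adjusted p = 0.58).

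The return of Tsc22d3 at 22 h was tested in the same way, as 22 h minus the other times in hairpin lines less the same in scr. The difference was 0.80 ± 0.17 (SE; limma adjusted p = 0.329), larger in 2 of 2 hairpin lines, a pattern seen before this comparison was made. It was 0.86 for the second brightest probe set and -0.11 for the dimmest past the filter (limma adjusted p = 0.348 and 0.882 over all probe sets). For Sgk1 the difference was 1.08 ± 0.26 (SE; limma adjusted p = 0.332), although Sgk1 was at its lowest at 22 h in every line. From 12 h to 22 h Sgk1 changed by -1.44 in scr, -0.44 in sh14 and -0.96 in sh133. No gene of the 12673 passed in this comparison (0%), while 4 of the 9, and 1453 of all genes, had an unadjusted p below 0.05. Within run 2, where the arrays can be compared directly, Tsc22d3 was 0.06 lower in sh133 than in scr at 1 h and 0.91 higher at 22 h.

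Cells changed in other ways over the same hours. Of the 9 erythroid markers tested 8 rose from 1 h to 22 h and 1 fell (limma; 8.74% and 9.34% of all genes). The mast cell and basophil list, of which 7 of 9 passed the filter, had a summed linear signal of 93.9 to 739 in scr, 126 to 383 in sh14 and 64.6 to 497 in sh133. Of the 7 genes of this list past the filter, 2 rose and 3 fell from 1 h to 22 h (limma; 8.74% and 9.34% of all genes), with a median difference of 0.17. In sh14 against scr 3 were higher (limma; 1.5% of all genes), with a median of 0.95. Hdc, the histidine decarboxylase gene of that list, was at 9.47, 8.69, 7.49 and 5.97 in scr at 1, 6, 12 and 22 h, and at 8.88, 7.04, 6.32 and 5.10 in sh133. Hdc in sh14 was at 8.31, 7.66, 7.14 and 5.73, so that Hdc, unlike the median of the list, was lower in sh14 than in scr at every time. Fcer1a, which defines mast cells and basophils, had a mean of 1.20 in scr, 1.08 in sh133 and 4.13 in sh14, and Mcpt8 was below the filter. The megakaryocyte list summed to 68.7 to 114 in scr, 198 to 282 in sh14 and 119 to 291 in sh133. The part of these shifts in the results for the 9 genes was not tested.

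Other genes of the pathway were taken from 4 lists. Of the receptor's chaperones and enzymes of hormone metabolism, 12 of 18 were tested, and 0 passed at 6, 12 or 22 h in limma. At those times 2.93%, 4.32% and 8.74% of all genes rose and 1.93%, 2.75% and 9.34% fell. An unadjusted p below 0.05 was found for 2, 0 and 1 of the 12, and for 2391, 2678 and 4036 of all 12673 genes. The median difference of the 12 was 0.10 at 22 h. Between lines Dnajb1, an Hsp40 chaperone, was lower in sh14 by 1.16 on the log2 scale (means 6.49 against 7.67 in scr; limma adjusted p = 0.00439) and made the call for both lines together (-0.66, limma adjusted p = 0.0254). Stip1, which links Hsp70 and Hsp90, was higher in sh133 by 0.54 (means 7.26 against 6.88; limma adjusted p = 0.0185).

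Of 21 tested coregulators that work with the receptor, 1 rose and 2 fell from 1 h to 22 h (limma; 8.74% of all genes rose and 9.34% fell), with a median difference of -0.06, so the share called was not above that of all genes. Kat2b, a histone acetyltransferase, rose by 1.08 (limma adjusted p = 0.000382), from 5.14 to 5.74 across lines at 1 h to 6.43 to 6.68 at 22 h. Nrip1, a corepressor, fell by 0.85 (limma adjusted p = 0.000616), and Crebbp, an acetyltransferase, fell by 0.53 (limma adjusted p = 0.00821). In sh133 against scr, Ncoa3 was higher by 0.66 (limma adjusted p = 0.0185), while the value was -0.64 for Ncoa1 (limma adjusted p = 0.0132) and -0.56 for Smarca2 (limma adjusted p = 0.0232). Ncoa1 and Ncoa3 encode related coactivators, which thus differed in opposite directions in that line.

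Of 50 other genes known to be induced by glucocorticoids in some tissue, 38 were tested. From 1 h to 6 h 6 fell and 1 rose (limma; 1.93% and 2.93% of all genes). At 12 h 8 fell and 3 rose, against 2.75% and 4.32%, and at 22 h 14 fell and 5 rose, against 9.34% and 8.74%. The median difference at 22 h was -0.26, against 0.02 over all genes. Dusp4, a MAP kinase phosphatase like Dusp1, fell (limma adjusted p = 0.000395), from 3.21 to 5.66 across lines at 1 h to 1.17 to 1.45 at 22 h. The 22 h signals lie near or below the filter of 1.45, so no size is given for this fall, which is opposite to the rise of Dusp1. Klf9, a zinc finger factor, fell by 1.41 (limma adjusted p = 6.21e-05), with 8.89 to 9.26 at 1 h and 7.51 to 7.84 at 22 h. Cdkn1a, the cell cycle inhibitor p21, fell by 1.40 (limma adjusted p = 6.45e-05), and Txnip, which binds thioredoxin, by 1.56 (limma adjusted p = 0.0397). This difference of Txnip was not shared by sh14, which was at 7.08, 6.08, 6.20 and 7.31 at 1, 6, 12 and 22 h. Txnip went from 8.69 at 1 h to 5.62 at 22 h in scr, and from 7.41 to 5.58 in sh133.

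In the same list 2 of 38 genes were lower and 1 higher in the hairpin lines averaged, where 1.04% and 1.14% of all genes were. Cdkn1c, the cell cycle inhibitor p57, was lower (log2 difference -1.14; means 3.13 in sh14 and 3.40 in sh133 against 4.56 in scr; limma adjusted p = 0.0479). Bcl2l11, which encodes the pro-apoptotic protein Bim, gave -0.73 (limma adjusted p = 0.0429), and Gadd45b 0.73 (limma adjusted p = 0.0269). In sh14 the chemokine receptor gene Cxcr4 was higher by 2.05 (limma adjusted p = 0.0256) and Lpin1, a phosphatidate phosphatase gene, by 1.33 (limma adjusted p = 0.00439), neither on arrays that share a run with scr. Mean signal was 5.59 in sh14 against 4.10 in scr for Cxcr4, and 4.76 against 4.30 for Lpin1. Both fitted values, with the array run in the model, are larger than the distance between these means.

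Of the other clock genes, 13 of 14 tested, 3 fell and 1 rose from 1 h to 22 h (9.34% and 8.74% of all genes), with a median difference of -0.19. Nr1d2, a nuclear receptor that represses clock genes, fell by 1.67 (limma adjusted p = 3.53e-05) and Bhlhe40, a helix-loop-helix repressor, by 1.05 (limma adjusted p = 0.00921). Clock fell by 0.50 (limma adjusted p = 0.0226), and Per3 rose by 0.55 (limma adjusted p = 0.0019), opposite to its relative Per1. Dbp was lower in sh133 than in scr (-0.67, limma adjusted p = 0.0236).

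For each of the 9 genes the 3 genes of most similar signal over the 12 arrays were listed by Pearson's r among 12672 other tested genes, as a description over arrays that share lines, times and runs. Per1 was closest to Klf9 (0.98), Egr1 (0.97) and Cdkn1a (0.97), of which Klf9 and Cdkn1a are in the list of induced genes above. Sgk1 was closest to Myadm (0.97), Hdc (0.95) and Id1 (0.94). Zbtb16 followed Spred2 (0.99), Myct1 (0.98) and Klhl6 (0.97), and Pik3ip1 followed Pitpnc1 (0.97), Klhl6 (0.95) and Zfp592 (0.95), so that Klhl6 is in both. Fkbp5 was closest to Etv5, Septin9 and Basp1 (0.96 each), and Ddit4 to Mmp17 (0.95), Klf2 (0.93) and Atf3 (0.91). Dusp1, the gene that rose, was closest to Tceal9 (0.95), Aqp1 (0.93) and Prpf6 (0.93). The lowest values were those of Tsc22d3, with P2ry14 (0.92), Marchf7 (0.90) and Rbm39 (0.89), and of Nr3c1, with Lpar1 (0.91), Exoc1 (0.91) and Dnajc1 (0.90).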

How the data were processed

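RNA of 12 I/11 samples was measured on Affymetrix mouse arrays. The authors deposited log2 signals per probe set. These are RMA values, as the submitters' processing notes record it without a version. This method equalises the arrays' distributions, so differences in total RNA cannot be read. Array medians were 1.84 to 1.92. Of 45101 probe sets, 34958 had 1 gene in the platform annotation, and the rest were not used.

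The brightest probe set stood for a gene, and a gene was tested where its mean reached log2 1.45, the 40th percentile over probe sets. Models held line, time as a factor and array run (5 residual degrees of freedom), fitted with limma 3.58.1 in R 4.3.3 on 12673 genes, with Benjamini-Hochberg adjustment and a threshold of 0.05. The method was tested on simulated data. Precision is limited by the number of arrays. The alternatives were no or a random run term, 2 other filters, the mean over probe sets or every probe set, a trended robust prior, each array left out, and each run alone. Named genes were the 9 members, up to 4 called genes of largest difference per list, and the 3 genes nearest each member. The members and lists were chosen with earlier results of these data known. Figures were drawn with Python 3.11.15.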

Additional observations from a re-analysis of the deposited data

Results flagged for a closer look

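In 7 of 27 sets of 4 arrays (each of the 9 genes in each line), 1 array lay apart from the other 3, by a gap to its neighbour that passed the limit of Dixon's test for 4 samples. That limit is set for about 1 in 20 sets of 4 replicates, whereas the 4 arrays of a set here are different times. All genes of a line share the same 1 h array, and the share over all tested genes is not given here. The count is therefore not read as a trait of the 9 genes. In all 7 the array apart was that at 1 h. The share of the range taken by the gap was 0.918 for Zbtb16 in sh133, 0.94 for Pik3ip1 in scr and 0.883 for Pik3ip1 in sh133. It was 0.912 for Fkbp5 in sh133, 0.896 for Per1 in scr, 0.881 for Per1 in sh133 and 0.863 for Ddit4 in sh14. In each case the 1 h array was the highest.

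The change of Pik3ip1 after 1 h, in its brighter probe set, differed between sh14 and scr by 1.66 on the log2 scale (limma adjusted p = 0.0492), in a comparison added after the values were seen. The sh14 and scr arrays belong to different array runs.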

How the results depend on the processing

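No result of the 9 genes changed direction with a call under any alternative. The other named genes were not followed through the alternatives. Counts of the 9 genes called moved as follows. Within run 2 alone, 2 fell at 6 h (6 in the model with all arrays) and 4 at 12 h (7 with all arrays). Counts over all genes within run 2 alone are not given here, so these lower counts on 6 arrays are not read as a trait of the 9 genes. Without the array run term, 2 genes differed for both hairpin lines against scr, 2 for sh14 against scr, 2 for sh133 against scr and 2 between the hairpin lines, and a random run term gave 2 in each as well (0, 0, 0 and 1 with the run as a term). Over all genes the counts without the run term were 2049, 3003, 1592 and 3132, against 276, 388, 622 and 1856 with it. Counts over all genes with a random run term are not given here, so the counts of 2 there are not read as a trait of the 9 genes. Within run 1 alone 2 of the 9 genes differed between the hairpin lines, as did 18.7% of all genes. The Pik3ip1 call for the change after 1 h in sh14 against scr was lost (0 of 9) with the filter at the 60th percentile, with the mean over probe sets and with every probe set tested.

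With each array left out in turn, the count ran from 2 to 7 at 6 h, 2 to 7 at 12 h and 6 to 7 at 22 h. It ran from 0 to 1 for both hairpin lines, for sh14 and for sh133 against scr, from 0 to 2 between the hairpin lines, and from 0 to 1 for the change after 1 h in sh14 against scr. Counts over all genes in these fits are not given here. The ranges are therefore not read as a trait of the receptor and target genes. Without an array at 1 h of a line compared, or at 22 h of scr or sh133 in some cases, the comparisons of the change after 1 h or at 22 h could not be fitted. No paired analysis was possible because replicate numbers within a line follow deposit order, and the time term already matches arrays across lines.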
